A study of Homo sapiens with 38 samples.

Results

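The protein kinase C genes PRKCA, PRKCB, PRKCD, PRKCE, PRKCH and PRKCQ and the RASGRP genes RASGRP1, RASGRP2 and RASGRP3 belong to families that include proteins that bind phorbol ester. These 9 genes, of 20050 protein-coding gene records, were examined for GATA3, BHLHE40 and H3K27ac in stimulated Jurkat cells, an established line grown from a human T-cell acute lymphoblastic leukaemia. All listed regions lying wholly between 50 kb before and 50 kb after each RefSeq gene record (GRCh38.p14) were taken, which gave 116 of 29009 GATA3 regions, 91 of 26205 BHLHE40 regions and 272 of 113570 H3K27ac regions. No region was counted for more than 1 gene.

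The regions come from chromatin immunoprecipitation and sequencing (ChIP-seq), in which DNA attached to a protein or modified histone is recovered with an antibody and mapped. The 3 groups used here are labelled Ctrl_LV, for a control lentivirus, and each holds 2 samples. The lentivirus protocol, shared by all 6, includes puromycin (5 ug/ml for 3 days), and all carried the stimulation with PMA (50 ng/ml) and ionomycin (500 ng/ml), lasting 5 hours by the sample characteristics but 2 hours by the protocol text, so no unstimulated level is given. The series holds 38 samples in 19 groups, and the other 16 groups, among them edited and BHLHE40 over-expressing cells, were not analysed here. Each group is represented by 1 deposited list, without values per sample, so no replicate spread and no test between conditions can be given. Depth is unknown, and Jurkat is a single leukaemia line, which limits it as a model of T cells.

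PMA, the phorbol ester in the stimulation, takes the place of diacylglycerol, the lipid messenger made after T-cell receptor engagement. Conventional protein kinase C enzymes (PRKCA, PRKCB) respond to calcium and diacylglycerol, whereas PRKCD, PRKCE, PRKCH and PRKCQ respond to diacylglycerol without calcium. RASGRP proteins are exchange factors that load RAS or RAP proteins with GTP, and some of them are drawn to membranes by the same lipid. GATA3 is a T-cell transcription factor that binds GATA words, BHLHE40 is a basic helix-loop-helix factor that binds E-boxes, and H3K27ac is a histone mark of active promoters and enhancers. The cell label was checked at gene starts: 6 of the 7 T-cell or T-ALL markers with a start in the RefSeq promoter table had an H3K27ac region there, the exception being GATA3, whereas none of the 5 B-cell, myeloid and liver markers with a start did (CD79A, PAX5, CD14, CSF1R and ALB). Over all protein-coding genes the share was 48.6%. Counting summits within 1 kb instead, 5 of the 7 T-cell markers (not LCK or GATA3) and 1 of the other 5 (CD79A) had H3K27ac.

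The 9 genes fell into crowded and sparse loci. At least 1 BHLHE40 region and 1 H3K27ac region lay in all 9 windows, and at least 1 GATA3 region in 8, the exception being PRKCD. The same held for 79.9%, 92.6% and 75.9% of all protein-coding windows, so presence alone did not set these genes apart. Because the windows ran from 119 kb (RASGRP2) to 637 kb (PRKCE), counts were also expressed per 100 kb of window. The median of the 9 genes was 3.37 GATA3 regions per 100 kb, against 0.99 for all protein-coding genes. For BHLHE40 the medians were 2.83 and 1.60, and for H3K27ac 8.67 and 5.87. GATA3 density lay above the all-gene median in 8 of 9 members, and BHLHE40 and H3K27ac density each in 6 of 9.

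PRKCQ, which encodes the isoform that gathers at the immunological synapse, had the highest density of GATA3 (6.98 per 100 kb, above 98.9% of protein-coding genes). It also had the highest density of H3K27ac regions of any −log10 q (14.3, above 95.1%). PRKCH followed for GATA3 with 6.04 (above 97.9%) and had 5.83 for BHLHE40. RASGRP2 had the highest BHLHE40 density, 5.90 per 100 kb, in a short window that also held 4 other protein-coding genes. At the other end RASGRP3 had 0.44 BHLHE40 and 1.75 H3K27ac regions per 100 kb, above only 23.0% and 17.7% of genes. The H3K27ac order depended on weak regions. A −log10 q of at least 5 was reached by 18 of 41 at PRKCQ, 3 of 25 at RASGRP1 and 8 of 10 at RASGRP2. Counting only these, RASGRP2 had a higher H3K27ac density than PRKCQ. By family, GATA3 density was 4.21 per 100 kb over the windows of PRKCA and PRKCB, 3.69 over those of the 4 other protein kinase C genes and 2.67 over those of the RASGRP genes. BHLHE40 gave another order, with 2.75, 3.16 and 2.48. Single genes differed more than families: among the 4 other protein kinase C genes, GATA3 density ran from 0 (PRKCD) to 6.98 (PRKCQ).

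**Figure D1:**
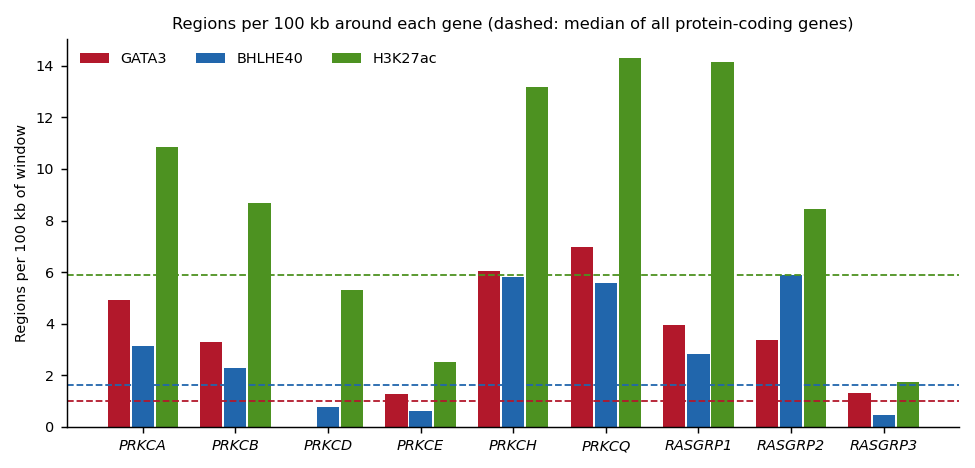
Regions per 100 kb of window (gene record plus 50 kb on each side) for each of the 9 genes, with 1 bar for each deposited list. H3K27ac bars count regions of any −log10 q. Dashed lines are the medians of all protein-coding genes in the same colours; PRKCQ, PRKCH, PRKCA, PRKCB, RASGRP1 and RASGRP2 stand above all 3 lines, and PRKCD lies below all of them.

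Regions at the gene starts were counted next. In the RefSeq promoter window, from 250 bases before to 50 after the start, a BHLHE40 region was found at 5 of 9 members (PRKCB, PRKCH, PRKCQ, RASGRP1 and RASGRP2) and at 45.0% of the 15842 protein-coding genes with a promoter entry. An H3K27ac region was found at 4 of 9 (PRKCH, PRKCQ, RASGRP1 and RASGRP2), against 48.6%. No member had a GATA3 region there, against 19.1%. The BHLHE40 and H3K27ac counts lie near the background, and 9 genes are too few to read a GATA3 count of 0 as a difference.

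Counting summits within 1 kb of the start instead, BHLHE40 was found at 7 of 9 members (background 45.8%), H3K27ac at the same 7 (54.3%) and GATA3 at none (20.6%). BHLHE40 and H3K27ac without GATA3 were thus found at 7 of 9 members, a combination seen at 25.2% of all genes. In the promoter window it was found only at PRKCH, PRKCQ, RASGRP1 and RASGRP2, and its all-gene share there is not given. At PRKCA, PRKCE and PRKCH it rested on H3K27ac regions with a −log10 q below 5. Again 9 genes are too few to read a difference. Counting summits within 1 kb added PRKCA, with a BHLHE40 summit 338 bp after its start (signal value 5.83), and PRKCE, with one 571 bp before it (signal value 15.1). For H3K27ac it added PRKCB as well. PRKCD and RASGRP3 had no summit of any list within 1 kb. The signal value is the authors' measure of enrichment for a region; its reference is not given in the sources used here, so values of different lists are not on 1 scale.

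Acetylation at these starts was unequal. The −log10 q of the H3K27ac region in the promoter window was 45.0 at PRKCQ, 20.3 at RASGRP2, 19.0 at RASGRP1 and 1.88 at PRKCH, where a stronger region (−log10 q 10.6) began just past the promoter window. At PRKCB the BHLHE40 region overlapped no H3K27ac region, and an H3K27ac region with a −log10 q of 10.8 had its summit 292 bp after the start. Within 1 kb of the PRKCA start the highest −log10 q was 3.32, and within 1 kb of the PRKCE start it was 2.58, so these 2 starts had only weakly supported acetylation. BHLHE40 signal values in the 5 promoter windows ran from 5.55 (PRKCQ) to 10.9 (PRKCH), 4 of the 5 below the list's median of 9.35. Several of these starts are shared with other transcripts: the PRKCQ summits lay in the PRKCQ-AS1 record and those of PRKCH in PRKCH-AS1, and the lists carry no strand.

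**Figure D2:**
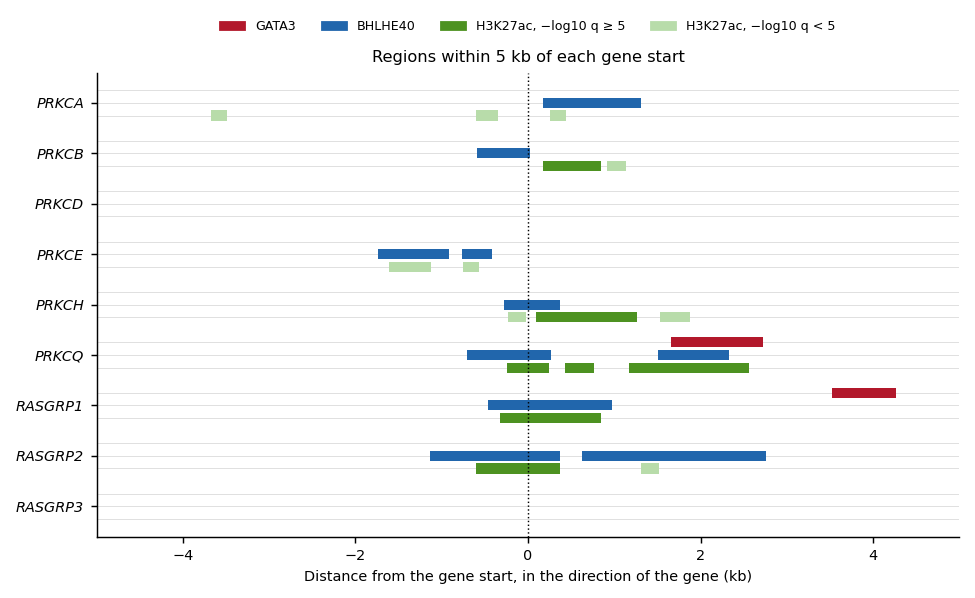
Extent of every listed region within 5 kb of each gene start, by distance from the start in the direction of the gene, in rows for GATA3 (top), BHLHE40 (middle) and H3K27ac (bottom, pale where −log10 q is below 5). BHLHE40 bars lie at or close to the start of 7 genes, GATA3 bars appear only downstream of the PRKCQ and RASGRP1 starts, and the PRKCD and RASGRP3 rows are empty.

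The promoter sequences are shown for the 5 members with a BHLHE40 region at the start and, for comparison, for RASGRP3, which had none. Each is the 250 bases before the start, 5′ to 3′ on the strand of the gene, from RefSeq on GRCh38.p14. The general E-box CANNTG is in capitals, a word chosen after the sequences had been seen, as was the bare GATA core used further on. The positions are chr16:23835733-23835982 (plus strand) for PRKCB, chr14:61321329-61321578 (plus strand) for PRKCH, chr10:6580647-6580896 (minus strand) for PRKCQ, chr15:38564815-38565064 (minus strand) for RASGRP1, chr11:64745349-64745598 (minus strand) for RASGRP2 and chr2:33436098-33436347 (plus strand) for RASGRP3.
PRKCB: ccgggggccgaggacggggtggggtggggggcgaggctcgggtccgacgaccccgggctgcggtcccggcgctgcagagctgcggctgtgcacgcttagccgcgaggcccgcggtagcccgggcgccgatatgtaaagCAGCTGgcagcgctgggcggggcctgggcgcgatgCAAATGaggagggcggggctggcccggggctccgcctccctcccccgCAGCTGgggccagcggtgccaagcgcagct
PRKCH: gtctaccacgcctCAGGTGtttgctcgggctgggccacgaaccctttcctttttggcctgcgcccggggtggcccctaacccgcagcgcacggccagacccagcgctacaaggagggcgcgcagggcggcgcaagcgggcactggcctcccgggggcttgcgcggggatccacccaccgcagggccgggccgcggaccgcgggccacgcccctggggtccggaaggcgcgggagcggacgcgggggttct
PRKCQ: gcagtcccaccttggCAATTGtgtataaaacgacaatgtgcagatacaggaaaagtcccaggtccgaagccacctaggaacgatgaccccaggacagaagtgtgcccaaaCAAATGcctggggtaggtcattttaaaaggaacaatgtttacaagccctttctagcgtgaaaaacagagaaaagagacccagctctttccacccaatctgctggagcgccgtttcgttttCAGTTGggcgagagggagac
RASGRP1: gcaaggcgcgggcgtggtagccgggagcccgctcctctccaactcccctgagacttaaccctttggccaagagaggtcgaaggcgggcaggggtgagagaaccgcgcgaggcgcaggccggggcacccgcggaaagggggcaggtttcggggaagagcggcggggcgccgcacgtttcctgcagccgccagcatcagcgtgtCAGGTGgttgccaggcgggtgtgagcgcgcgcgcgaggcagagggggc
RASGRP2: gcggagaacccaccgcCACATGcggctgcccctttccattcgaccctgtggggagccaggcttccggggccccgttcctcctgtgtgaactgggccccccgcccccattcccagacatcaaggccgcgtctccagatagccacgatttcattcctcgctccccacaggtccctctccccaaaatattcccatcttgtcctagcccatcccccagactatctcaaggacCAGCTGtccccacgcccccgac
RASGRP3: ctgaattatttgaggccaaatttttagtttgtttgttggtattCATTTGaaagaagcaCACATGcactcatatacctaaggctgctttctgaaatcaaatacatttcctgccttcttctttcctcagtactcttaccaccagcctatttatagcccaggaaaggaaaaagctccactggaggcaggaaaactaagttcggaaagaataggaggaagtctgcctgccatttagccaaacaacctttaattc

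Neither the E-box CACGTG nor the GATA words AGATAA and TGATAA occurred, on either strand, in the full 300-base promoter window of any of the 9 members. CACGTG was present in 8.88% of the 15842 promoters of the same length, and in 11.96% of the 7134 that held a BHLHE40 region, whereas CANNTG was present in 64.5% of all promoters and 58.9% of those 7134. One of the GATA words was present in 12.02% of all promoters. The shorter words, which contain or overlap these, were less selective: CANNTG (which includes CACGTG) was found in 7 of 9 members, and the bare GATA core (which lies within both longer GATA words) in 4 of 9 members and 43.2%. Absence from this window says only that these letters are not in it. Base composition varied widely among the members, from 81.3% G and C at PRKCA to 51.3% at PRKCQ and 39.7% at RASGRP3.

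Most regions lay far from any start. Of the 116 GATA3 regions, 94 had their summit inside the gene record of the member and 109 (94.0%) were more than 10 kb from any protein-coding start in the promoter table, as were 76.1% of the whole list. For BHLHE40 the shares were 83.5% in these windows and 59.5% in the list. The records of PRKCA, PRKCB, PRKCE and PRKCH are long, at 364 to 537 kb, and the part of record length in this difference was not tested. Records take up most of the combined window length, and the 94 GATA3 summits inside them were not set against a background share. Exons, introns and untranslated regions could not be told apart with the gene table used.

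Regions of the 2 factors coincided about as often here as elsewhere. BHLHE40 overlapped 57 of the 116 GATA3 regions (49.1%), against 48.7% of the whole list, and H3K27ac overlapped 60 (51.7%), against 49.1%. Of the 91 BHLHE40 regions, 56 (61.5%) overlapped GATA3 (list 53.0%) and 71 (78.0%) overlapped H3K27ac (list 76.4%). Where a GATA3 and a BHLHE40 region overlapped, their summits lay a median of 32 bp apart (range 1 to 1083 bp), and 37 of 57 (64.9%) were within 50 bp, against 61.5% of all 14123 shared GATA3 regions. All these shares are close to the background of their lists.

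GATA3 regions shared with BHLHE40 had a median signal value of 19.7 in these windows and 13.9 in the list, while those with neither BHLHE40 nor H3K27ac had 10.6 and 10.1. The strongest 10.0% of each list by signal value supplied 15 of the 116 GATA3 regions (12.9%), 10 of the 91 BHLHE40 regions (11.0%) and 20 of the 272 H3K27ac regions (7.35%). PRKCQ held 6 of these 15 GATA3 regions and PRKCE 4.

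A −log10 q of 5 or more was reached by 95 of the 272 H3K27ac regions in the windows (34.9%), against 25.1% of the list. Overlap with GATA3 or BHLHE40 was found for 113 of the 272 (41.5%; list 26.4%). Among those reaching 5 it was found for 66 of 95 (69.5%), against 70.0% in the list, so the excess over the list was not seen among the well-supported regions. Of the 95, 39 (41.1%) overlapped both factors, 21 (22.1%) BHLHE40 alone and 6 (6.32%) GATA3 alone. The list's shares at the same threshold were 34.5%, 31.4% and 4.08%.

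**Figure D3:**
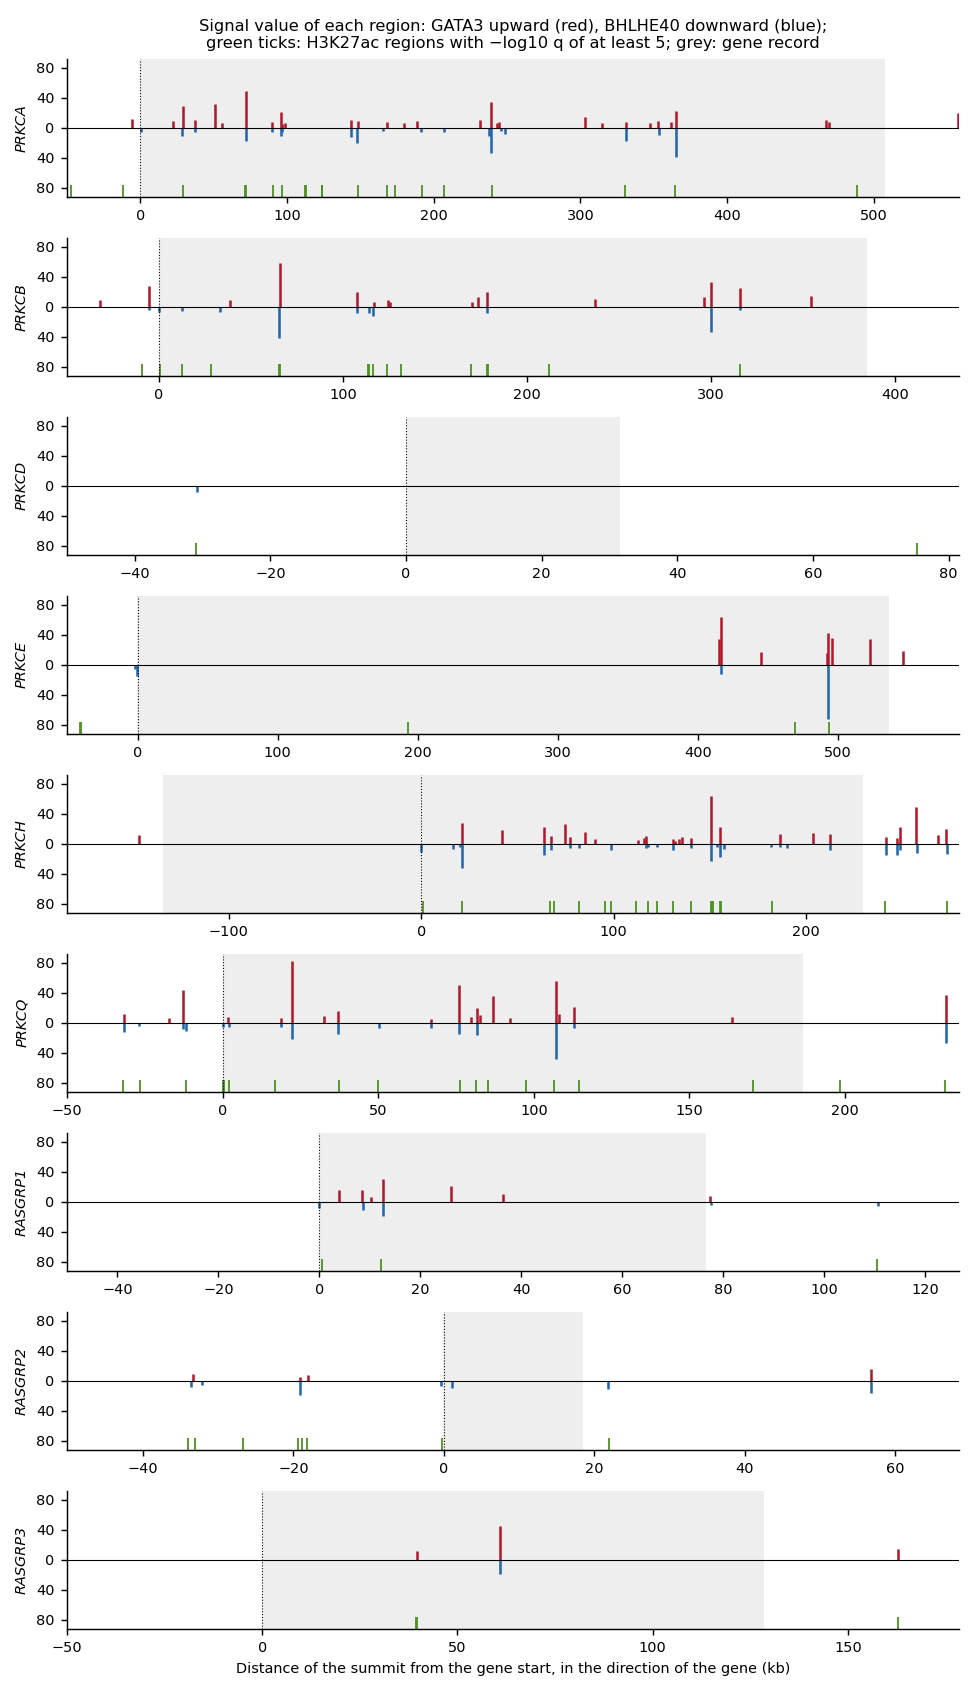
Every GATA3 (upward) and BHLHE40 (downward) region of the 9 windows at its summit's distance from the gene start, with line height giving the authors' signal value on 1 scale for all genes; green ticks are H3K27ac regions whose −log10 q reached 5 and grey marks the gene record. GATA3 lines are spread through PRKCA, PRKCH and PRKCQ, stand at the far end of PRKCE and are absent from PRKCD.

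PRKCQ held 20 GATA3, 16 BHLHE40 and 41 H3K27ac regions, and 12 of the GATA3 regions overlapped BHLHE40. Its strongest GATA3 region, at chr10:6557984-6558781, 22.2 kb into the gene, had a signal value of 82.5 and ranked 455 of 29009. The BHLHE40 region there had a signal value of 22.0, with its summit 8 bp away. This was the highest GATA3 value among the 9 genes.
The strongest BHLHE40 region of PRKCQ lay elsewhere, at chr10:6473216-6474545, 107 kb into the gene, with a signal value of 48.1 (rank 418 of 26205). It coincided with a GATA3 region of signal value 55.3, summits 16 bp apart, under an H3K27ac region with a −log10 q of 130.8. Next by GATA3 signal value, a shared place 76.1 kb into the gene, had values of 50.5 for GATA3 and 15.7 for BHLHE40. The strongest H3K27ac region of the window, chr10:6542564-6544260, 37.3 kb into the gene, had a signal value of 9.20 and a −log10 q of 203, and there the factor values were lower, 15.4 for GATA3 and 15.1 for BHLHE40. The highest H3K27ac value and the highest GATA3 value were thus at different places within this gene. Nearest to the start, a shared place 1.86 kb into the gene had a GATA3 signal value of 8.29.

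PRKCH encodes an isoform found in T cells and epithelia. Its window held 28 GATA3, 27 BHLHE40 and 61 H3K27ac regions, and 16 of the GATA3 regions overlapped BHLHE40, the most of any member. The RefSeq promoter entry starts 134 kb inside the gene record, and distances here are from that start. The record before it held no factor summit other than that of the BHLHE40 region over the start, 7 bp before it. The strongest GATA3 region (chr14:61472051-61473493, 151 kb after the start, signal value 63.5, rank 890) overlapped a BHLHE40 region of 23.4. At 155 kb after the start, a shared place with lower factor values of 22.2 and 18.0 overlapped the 2 H3K27ac regions with the highest significance in the window, at −log10 q 154.7 and 200.3. BHLHE40 was strongest at chr14:61341983-61343188, 21.1 kb after the start, with a signal value of 32.5 (rank 1108), and the overlapping GATA3 region had 27.4 (rank 4099). The H3K27ac region with the highest signal value, 7.17 at chr14:61503087-61503928, overlapped BHLHE40 and not GATA3. Of the 28 GATA3 regions, 7 lay outside the record, among them a shared place of signal value 48.8 at chr14:61577822-61579238.

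PRKCA, a conventional isoform, held 30 GATA3, 19 BHLHE40 and 66 H3K27ac regions, the largest GATA3 and H3K27ac counts of the 9 genes. All 19 BHLHE40 regions and 28 of the GATA3 regions lay inside the record. More GATA3 regions stood without BHLHE40 (18) than with it (12). This also held at PRKCB, PRKCE, RASGRP1 and RASGRP3, and 48.7% of the whole list overlapped BHLHE40. The median GATA3 signal value at PRKCA was low, at 8.87. The strongest, chr17:66374085-66374906, 71.9 kb into the gene, had a signal value of 49.0 (rank 1539) and overlapped a BHLHE40 region of 17.5 with summits 6 bp apart. At 239 kb into the gene the signal values were 34.1 for GATA3 (rank 2904) and 33.1 for BHLHE40 (rank 1064), under a 2528 bp H3K27ac region with a −log10 q of 73.7, the most significant of the window. BHLHE40 peaked at chr17:66667002-66668273, 365 kb into the gene, with 38.8 (rank 714), where GATA3 had 22.9 (rank 5401). The strongest places of the factors therefore differed within the gene. A GATA3 region of signal value 32.0, 50.7 kb into the gene, overlapped neither other list. The H3K27ac region with the highest signal value, 5.20 at chr17:66493577-66494828, overlapped BHLHE40 but not GATA3.

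PRKCB, the other conventional isoform, which acts in antigen-receptor signalling of B cells, held 16 GATA3, 11 BHLHE40 and 42 H3K27ac regions. Its strongest regions of both factors coincided at chr16:23901117-23901757, 65.5 kb into the gene, where GATA3 had a signal value of 59.0 (rank 1051) and BHLHE40 41.6 (rank 600), with summits 36 bp apart. The next place, 299.9 kb into the gene, had a GATA3 signal value of 32.8 (rank 3100 of 29009) and a BHLHE40 signal value of 33.7 (rank 1027 of 26205). A further place, 5.53 kb before the start, ranked 4011 for GATA3 (signal value 27.8) and 25027 for BHLHE40 (signal value 4.56), near the bottom of the BHLHE40 list, and no H3K27ac region overlapped it. The strongest H3K27ac region, chr16:23863374-23864488 with a signal value of 6.94 and a −log10 q of 32.2, overlapped neither factor.

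PRKCE, an isoform linked to the cytoskeleton and to transformation, had few but strong regions. The 8 GATA3 regions had a median signal value of 34.4, against 11.2 for the list, and the lowest was 15.0. Every one lay more than 415 kb from the start, in the far part of the gene or beyond it, and the longest stretch of the record without a factor summit was 415.6 kb (77.4% of the record). BHLHE40 at chr2:46144051-46145288, 493 kb from the start, had a signal value of 72.9 and ranked 123 of 26205, the highest BHLHE40 value among the 9 genes, and the GATA3 region there had 42.0. The strongest GATA3 region, chr2:46067648-46068599, had a signal value of 64.0 (rank 866) with a BHLHE40 region of 12.9 and no H3K27ac. Its −log10 q was 413.1, against 897.4 for the PRKCH region of GATA3 signal value 63.5. Of the 8 GATA3 regions, 5 overlapped neither other list, as did 37.1% of GATA3 regions in the 9 windows and 39.9% of the whole list. The strongest H3K27ac region by signal value, 6.36 at chr2:45610852-45611149, lay 40.7 kb before the start, inside the record of SRBD1.

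PRKCD, a widely expressed isoform, was nearly empty. Its window held no GATA3 region, 1 BHLHE40 region and 7 H3K27ac regions, 2 of them with a −log10 q of at least 5. None of these had its summit in the PRKCD record. The BHLHE40 region, with a signal value of 8.67, lay 30.8 kb before the start and overlapped the strongest H3K27ac region (signal value 7.73).

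RASGRP1, the main RAS exchange factor of thymocytes and T cells, held 7 GATA3, 5 BHLHE40 and 25 H3K27ac regions. The factor regions gathered in the first part of the gene: 6 GATA3 summits lay between 3.82 and 36.4 kb after the start. At chr15:38551777-38552737, 12.6 kb into the gene, the strongest regions of both factors coincided, with signal values of 30.1 for GATA3 and 18.8 for BHLHE40 and summits 15 bp apart. A second shared place at 8.37 kb had 15.5 and 10.5, with summits 264 bp apart, and the remaining one, beyond the far end of the gene, had 7.88 and 4.94. Only 3 of the 25 H3K27ac regions had a −log10 q of at least 5, among them the region over the start, and the one with the highest signal value (6.89) lay at the start of the neighbouring gene FAM98B, where a BHLHE40 region of signal value 5.08 overlapped it.

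RASGRP2 encodes an activator of RAP1 in platelets and leukocytes. All 4 GATA3 regions and 6 of the 7 BHLHE40 summits, including the one just before its start, lay outside its short record, and all 4 GATA3 regions overlapped BHLHE40. The strongest GATA3 region, chr11:64688300-64688901, had a signal value of 15.2, and the BHLHE40 region there 16.1. BHLHE40 was strongest at chr11:64761765-64765022, 19.1 kb before the start, with a signal value of 18.6 over 3258 bp, and 2 weaker GATA3 regions (7.04 and 4.83) overlapped it. The strongest H3K27ac region of any member window, with a signal value of 10.1, lay at the start of SF1, a splicing factor gene, so counts in this window include the starts of neighbours.

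RASGRP3, which acts in B cells and endothelium, held 3 GATA3 regions, 1 BHLHE40 region and 4 H3K27ac regions. The single shared place, chr2:33496813-33497709, 61.0 kb into the gene, had a GATA3 signal value of 45.3 (rank 1749) and a BHLHE40 signal value of 18.7, with summits 11 bp apart and no H3K27ac. The strongest H3K27ac region (6.87) lay 39.7 kb into the gene and overlapped a GATA3 region of 11.6. The last GATA3 region, of signal value 14.8, lay at the start of FAM98A, outside the record.

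**Figure D4:**
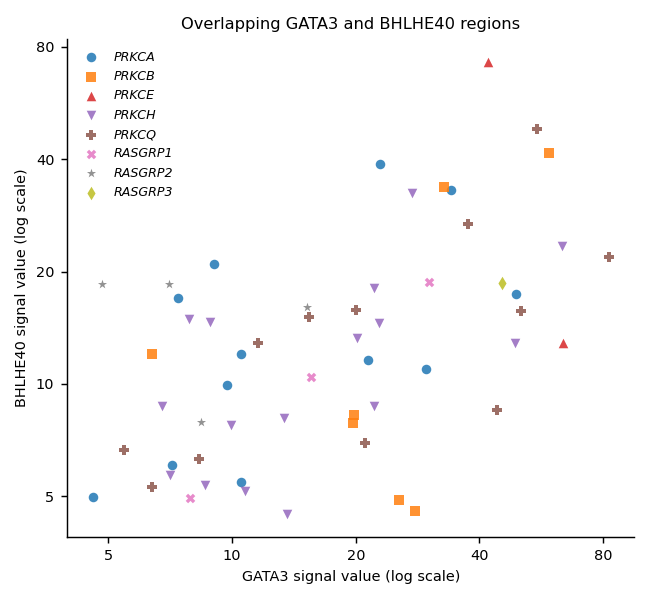
GATA3 against BHLHE40 signal value, on log axes, for the overlapping pairs of regions in the 8 windows that held any; each point is 1 pair and symbols mark the genes. The highest BHLHE40 value, 72.9 at PRKCE, is paired with a GATA3 value of 42.0, and the highest GATA3 value, 82.5 at PRKCQ, with a BHLHE40 value of 22.0.

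Other genes of the pathway were read at their starts, in the promoter window used for the members. Over all protein-coding genes the shares there were 45.0% for BHLHE40, 48.6% for H3K27ac and 19.1% for GATA3. The gene groups are small, and differences from these shares were not tested. Among relatives that are not members, a start was given for PRKCI, PRKCZ, RASGRP4, PRKD1, PRKD2, PRKD3, CHN1 and CHN2. BHLHE40 lay at 2 of these 8 starts (PRKCI and CHN1), H3K27ac at the same 2, and GATA3 at 2 (RASGRP4 and CHN1). PRKCI and PRKCZ encode atypical isoforms that do not respond to diacylglycerol; PRKCI had 3 GATA3 regions in its window and PRKCZ none. The window of PRKD1, a protein kinase D gene, held no region of either factor, whereas CHN2, a chimaerin gene, had 19 GATA3 and 14 BHLHE40 regions.

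Genes that make or remove diacylglycerol had BHLHE40 at 3 of 8 starts (PLCG1, DGKE and DGKH), H3K27ac at 4 (these and DGKD) and GATA3 at 2 (PLCG1 and DGKZ). PLCG1, the phospholipase that acts below the T-cell receptor, had all 3, with a −log10 q of 104.5 for H3K27ac. Of the downstream genes, 7 of 9 had BHLHE40 at the start (BCL10, MALT1, HRAS, NRAS, MAP2K1, MAP2K2 and MAPK3) and 8 of 9 had H3K27ac (these and SOS2), while SOS1 had neither in the promoter window. GATA3 was at the start of MAP2K1 only among these 9. The shares over all protein-coding genes were 45.0% for BHLHE40, 48.6% for H3K27ac and 19.1% for GATA3.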

How the data were processed

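ChIP-seq of GATA3, BHLHE40 and H3K27ac in 3 groups of 2 control-lentivirus samples was used, grouped by sample titles. Per the submitters' processing notes, MACS2, bcl2fastq 2.20 and hg38 were used; other steps are not given in the sources used here. The authors deposited 1 narrowPeak list per group, the factor lists named for an irreproducible discovery rate of 0.05 and the H3K27ac list as pooled. Each line has a deposited score (540 to 1000 in the factor lists), signal value and −log10 q. The H3K27ac list was used whole, so weak regions enter its counts.

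Lines were assigned to RefSeq records (GRCh38.p14) with 50 kb on each side. Overlap meant at least 1 bp. Gene starts came from the RefSeq promoter table, which held 15842 of 20050 protein-coding genes and all 9 members. No test was run, since the lists have no values per sample. Members and lists were chosen with earlier results of these data known. All members were named, each with its strongest region per list, the regions at its start and up to 3 shared places by GATA3 signal value. A planned protein-domain search was not run, and some genes of the pathway list are not reported here. Interval lookups were tested on simulated data. The software was Python 3.11.15 with pandas 2.3.3, numpy 2.4.6, matplotlib 3.10.9 and scipy 1.17.1. Coordinates are 1-based.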

Additional observations from a re-analysis of the deposited data

How the results depend on the processing

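Across 9 results, 32 other settings were computed, of which 25 left the count within 1.5 times, or the share within its 95% Wilson interval. That interval treats regions as independent, although regions of the same locus are not replicates, so it serves only as a yardstick. Dropping H3K27ac regions whose −log10 q was under 5 lowered their count in the 9 windows from 272 to 95, the share of GATA3 regions with H3K27ac from 51.7% to 34.5% and the share of BHLHE40 regions with H3K27ac from 78.0% to 57.1%. Requiring the summit of the factor to lie in the H3K27ac region gave 31.9% for GATA3 and 51.6% for BHLHE40. With a score of at least 830, members with BHLHE40 at the start fell from 5 to 3. With summits within 1 kb of the start, members with H3K27ac rose from 4 to 7. The count of members with GATA3 at the start was 0 in each of its 3 settings. No paired analysis was possible because the deposited lists merge the samples of a group, and leaving out a replicate was not run for the same reason. Depth is unknown, so a region missing from a list may lie under its detection limit.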
